A study of Rattus norvegicus with 6 samples.

Results

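A set of 10 lysosomal genes was described in the cells of the rat cerebral hemisphere: the proteases Ctsb, Ctsd, Ctsl, Ctss and Ctsz, the membrane proteins Lamp1, Lamp2 and Cd68, and the cholesterol transporters Npc1 and Npc2. The genes were taken by symbol from the gene column of the deposited matrices, and all 10 were present among the 15227 genes counted. They were followed in raw counts of unique molecular identifiers (UMIs, 1 per captured transcript) from cells assigned to classes by marker genes.

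The series holds 6 droplet single-cell libraries, 3 from control rats (labelled NC, negative control) and 3 from rats poisoned with carbon monoxide (CO). The CO rats breathed 1000 ppm CO for 40 minutes and then 3000 ppm for 20 minutes, and poisoning was taken as severe when consciousness was impaired and carboxyhemoglobin was over 60%. Strain, sex, age and the time between exposure and dissection are not given in the sources used here, and no genetic change is named for either group. The tissue was dissociated with trypsin and DNase I, and cells lost in that step are not counted in either group. The series' title places the work in the study of dead-cell clearance by macrophages after CO poisoning.

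The libraries held 6331 to 7953 cell barcodes and 39494470 to 47322264 UMIs, and 1 barcode was shared over the 15 pairs of libraries. After filters and doublet removal 19664 NC and 16878 CO cells remained, with median depths of 4755 and 5556 UMIs. Although the tissue is labelled as hemisphere, neurons were nearly absent: 3 NC and 27 CO cells passed the neuron gate, against 353 and 349 that passed the choroid plexus gate. The design text names 3 rats per group, but the 3 libraries of a group differed, over all genes, little more than random parts of 1 pool of cells would. In microglia-like cells the variance between libraries was 0.965 (NC, mean over 6723 genes) and 0.984 (CO, 7120 genes) times that expected from the cells within a library, and over all kept cells it was 1.02 and 1.10 times. It was up to 1.31 times in the astrocyte-like and neuroblast-like cells described below. Over the 10 genes alone it was 0.746 and 0.716 times in microglia-like cells. In endothelial-like cells it was 1.62 and 1.71 times, and in neuroblast-like cells 1.93 (NC, where Cd68 had no UMI) and 1.72 times (CO). It was 2.37 times in CO oligodendrocyte-like cells and 1.90 times over all CO cells. Except in the microglia-like cells, these libraries differ by more than such parts would. Each group was nevertheless counted as 1 sample (n = 1): library values are shown as a description, ratios carry 95% intervals that cover counting error only, and no p-value is given for CO against NC. Variation between animals was not measured by these numbers.

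Lysosomes degrade material that cells take up by phagocytosis or endocytosis, or deliver by autophagy. Cathepsins B, L, S and Z are cysteine proteases of the lysosome and cathepsin D is an aspartic protease; cathepsin S also works near neutral pH and trims the invariant chain in antigen-presenting cells. LAMP1 and LAMP2 are abundant glycoproteins of the lysosomal membrane, CD68 is a LAMP family member used as a marker of phagocytes, and NPC2 hands cholesterol to NPC1 for export from the lysosome. In brain, microglia and the macrophages of the brain's borders are the main phagocytes.

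Promoter sequence was available for 9 of the 10 genes in RefSeq's rat table (assembly GRCr8, 250 bases before to 50 after each gene start); no entry was used for Ctsb. CACGTG, the core of the E-box bound by the lysosomal regulator TFEB, reads the same on both strands and was found in 6.65% of all 27457 promoters of that length. It lay in the promoters of Ctsd, with 2 matches, and Lamp1, with 5. At least 2 matches were found in 0.554% of promoters, and the Lamp1 promoter was the only 1 of the 27457 with at least 5. The longer TCACGTGA, which overlaps CACGTG, was in 0.867% of promoters and again in those of Ctsd and Lamp1, and the full CLEAR element, the palindrome that extends it by a base on each side, was in 0.277% and in none of the 9. GAGGAAGT, a form of the site of the myeloid factor PU.1, was searched on both strands after the values were seen; it was in 2.44% of promoters and, of the 9, in that of Ctss alone. These matches describe the letters of the windows and are not measured binding. The stretches below, from the minus strand of chr1:206968822-206968998 (Ctsd), the minus strand of chr16:83075076-83075266 (Lamp1) and the plus strand of chr2:185775359-185775395 (Ctss), are shown because they hold these matches, written in capitals.
Ctsd: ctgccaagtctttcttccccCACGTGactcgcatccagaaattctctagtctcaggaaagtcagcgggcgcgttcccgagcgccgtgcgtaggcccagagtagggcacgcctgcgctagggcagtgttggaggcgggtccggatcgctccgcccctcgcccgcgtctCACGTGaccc
Lamp1: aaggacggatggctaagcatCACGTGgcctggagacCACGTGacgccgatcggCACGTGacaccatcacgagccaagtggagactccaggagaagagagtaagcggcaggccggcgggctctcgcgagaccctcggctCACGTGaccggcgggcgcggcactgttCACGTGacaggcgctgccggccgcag
Ctss: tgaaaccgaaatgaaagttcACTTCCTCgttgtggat

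Across the 9 cell classes compared, 6 of the 10 genes had their highest NC level in microglia-like or macrophage-like cells, and Ctsd, Ctsl, Lamp1 and Npc1 did not. Levels are UMI counts scaled to a common library total (CPM) with trimmed-mean (TMM) scaling factors set within a class; a level compares 1 gene between classes, and levels set side by side across classes were scaled separately. The 9 measured macrophage markers summed to between 108 and 113 CPM in NC microglia-like libraries and to between 7737 and 8592 CPM in macrophage-like ones. The gate used these markers, so the sums describe the classes and cannot check the labels. Microglial markers summed to between 3042 and 3802 CPM in NC macrophage-like libraries, against between 6701 and 6758 CPM in microglia-like ones. Monocyte or dendritic markers summed to between 5155 and 7351 CPM in those macrophage-like libraries, against between 1941 and 2205 CPM.

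**Figure D1:**
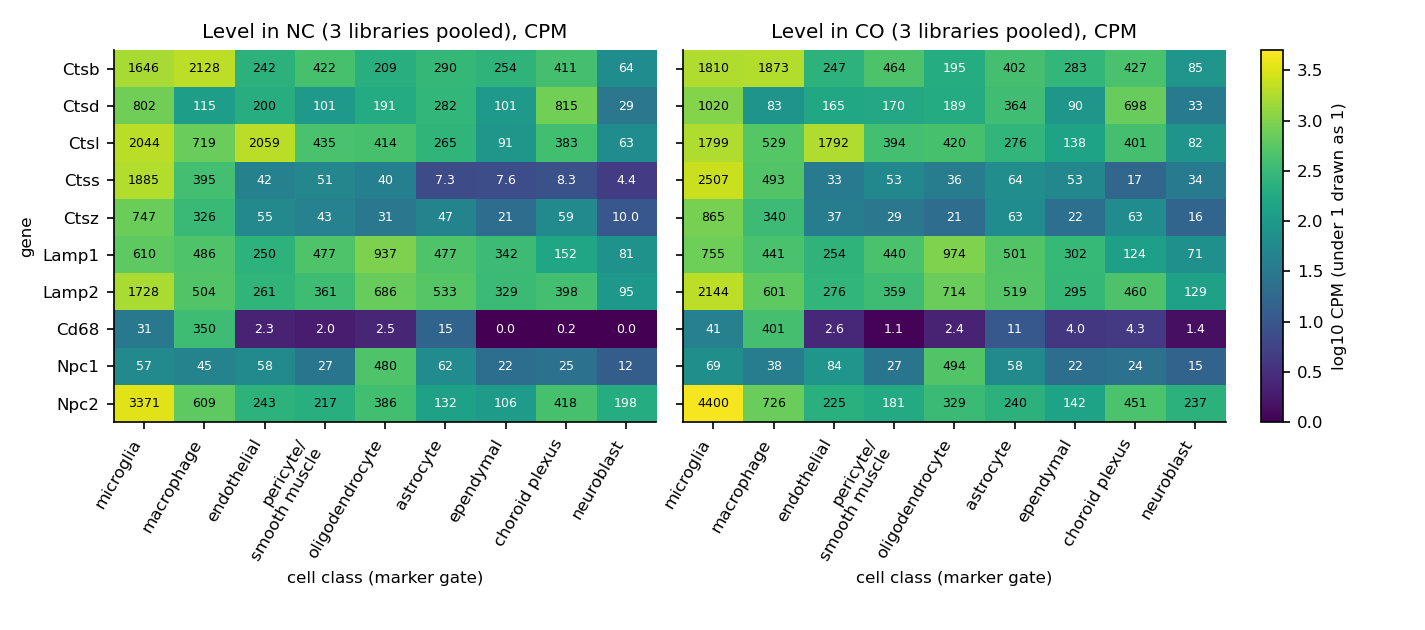
Level of the 10 genes (rows) in 9 cell classes (columns) in NC (left) and CO (right), as CPM over the 3 pooled libraries of a group, with the value in each cell and a log10 color scale. Npc2 in microglia-like cells is the highest entry and Npc1 stands out in oligodendrocyte-like cells. Cd68 is near 0 outside macrophage-like and microglia-like cells, except in astrocyte-like cells, where it is uneven. Astrocyte-like libraries ran from 1.52 to 40.6 CPM of Cd68 in NC and from 0 to 36.5 CPM in CO.

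Among the cathepsins, Ctss and Ctsz followed the phagocytes. Ctss stood at 1867 to 1904 CPM in the NC libraries of microglia-like cells and at 299.6 to 475 CPM in macrophage-like cells. No other of the 9 classes went over 101.7 CPM in any NC library. Monocyte- or dendritic-like cells, too few to compare (88 in NC), held 100.9 to 213 CPM of Ctss and 342 to 585 CPM of Ctsz. Ctsz was highest in microglia-like cells too, at 734 to 759 CPM, then in macrophage-like cells, at 236 to 382 CPM, and its pooled NC level in the other classes of the 9 was 9.96 to 59.2 CPM. The ranges of microglia-like and macrophage-like libraries did not overlap for either gene, while most neighbours among the other classes did overlap.

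Ctsb was the leading cathepsin of macrophage-like cells. It made up 57.8% of the UMIs of the 5 cathepsins there in NC (exact 95% interval 56.5 to 59.0%) and 56.5% in CO, against 23.1% and 22.6% in microglia-like cells. Its NC libraries ranged from 1872 to 2317 CPM in macrophage-like and from 1599 to 1692 CPM in microglia-like cells, without overlap. In CO the macrophage-like range of 1749 to 2045 CPM enclosed the microglia-like 1794 to 1826 CPM.

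Ctsd went the other way in these phagocytes. Microglia-like cells held 802 CPM in NC and macrophage-like cells 115 CPM, which is 14.3% of the microglial level. Choroid plexus-like cells, the epithelium that makes cerebrospinal fluid, reached 815 CPM in NC, and their libraries (761 to 898 CPM) overlapped those of microglia-like cells (791 to 811 CPM). In CO microglia-like cells were highest at 1020.5 CPM, and choroid plexus-like cells came next at 698 CPM, without overlap of libraries. Ctsd made up 48.6% of the cathepsin UMIs of choroid plexus-like cells in NC, the largest share of the 5 there, and 3.12% of those in macrophage-like cells.

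Ctsl was as high in endothelial-like cells, the lining of blood vessels, as in microglia-like cells. The endothelial level was 2059 CPM in NC and 1792 CPM in CO, 100.7% and 99.6% of the microglial level, and the libraries of both classes overlapped in both groups. Ctsl supplied 79.2% of the cathepsin UMIs of endothelial-like cells in NC and 28.7% of those of microglia-like cells. Among endothelial-like cells with no UMI of 10 microglial reference genes (C1qa, C1qb, C1qc, Tyrobp and others, described below), 2115 of 3041 NC cells still held 24156 Ctsl UMIs.

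The membrane proteins were spread more widely. Lamp1 was highest in oligodendrocyte-like cells, which make myelin: their NC libraries held 914 to 951 CPM and their CO libraries 921 to 1017 CPM, against 598 to 630 and 751 to 759 CPM in microglia-like cells, with no overlap in either group. Lamp2 was highest in microglia-like cells at 1728 CPM in NC, 2.52 times the oligodendrocyte level that came next. Neuroblast-like cells, the immature neurons, had the lowest NC level of both Lamp genes, at 80.8 and 95.2 CPM.

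Cd68 separated the phagocytes from each other. It reached 350 CPM in macrophage-like cells of NC and 401 CPM in CO, against 31.2 and 41.1 CPM in microglia-like cells, 11.2 and 9.77 times less, with no overlap of libraries. In NC, 47.1% of macrophage-like cells and 11.03% of microglia-like cells held a Cd68 UMI at median depths of 3908 and 5199 UMIs. In endothelial-like cells, which should lack it, 0.756% did at a median depth of 4403 UMIs. No Cd68 UMI was found in NC neuroblast-like or ependymal-like cells, which allows up to 1.11 and 1.90 CPM.

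Npc1, the membrane transporter, was a gene of oligodendrocyte-like cells here. Their NC libraries held 479.9, 476.8 and 482.2 CPM and their CO libraries 505.7, 485.2 and 489.9 CPM, 839% and 718% of the microglial level. The class next in order stood at 61.9 CPM in NC (astrocyte-like) and 84.1 CPM in CO (endothelial-like). Its partner Npc2 was instead highest in microglia-like cells, with 3371 CPM in NC, 5.53 times the macrophage-like level. The median over the 10 reference genes was 3.25% of their microglial level in oligodendrocyte-like cells of NC and 1.56% of it in CO.

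By the likeness rule (the 2 genes outside the 10 with the highest Pearson r of log2(CPM + 1) over the 54 values of 9 classes and 6 libraries, among 6057 genes), Ctss was nearest to Trem2 (r = 0.970) and Csf1r (0.960), and Cd68 to Lyz2 (0.941) and Tyrobp (0.883). Ctsb was nearest to Hmox1 (0.914) and Ctsh (0.907), Ctsz to Rin2 (0.917) and Hmox1 (0.904), and Npc2 to Lgmn (0.867) and Trem2 (0.862). Ctsd was nearest to Plbd2 (0.891) and Psap (0.863), and Lamp2 to Ppt1 (0.878) and Itgav (0.838), so that 3 of these 4 are other lysosomal genes. Npc1 was nearest to the myelin gene Cnp (0.879) and to Tmem189 (0.870), Lamp1 to Wipf1 (0.882) and Hsd17b11 (0.858), and Ctsl to Lpar6 (0.873) and Dera (0.855). Among the members, Ctsb and Ctsz were the most alike pair (r = 0.892), and Ctsb and Npc1 the least (0.070). The values of a class share libraries. Csf1r, Lyz2 and Cnp were also markers in the gate, for microglia, for monocytes or dendritic cells and for oligodendrocytes. These r are therefore a description.

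In microglia-like cells, 9 of the 10 genes were higher in CO and Ctsl was lower. Cells numbered 6195 in NC and 6749 in CO. For the 9, every CO library lay above every NC library, which held for 22.4% of the 11755 genes compared. For Ctsl every CO library lay below, which held for 23.4%. Of the 9, the 4 genes Ctsd, Ctss, Cd68 and Npc2 passed the fold threshold (at least 25% higher in CO, or at least 20% lower, the same fold in either direction), as did 9.46% of the 6266 genes over the expression minimum (a mean log2 CPM of 4), and none of the 10 passed it downward (9.91% of genes). The median log2 ratio of the 10 was 0.31, beside a median of -0.00046 over all genes compared.

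Cathepsin S had the largest log2 ratio of the 10. Ctss was at 1886, 1904 and 1867 CPM in the NC libraries and at 2529, 2464 and 2526 CPM in the CO libraries. The CO libraries were all higher and the groups were far apart: the log2 ratio was 0.41 (95% counting interval 0.40 to 0.43). Its share of the cathepsin UMIs went from 26.5% to 31.3%, while that of Ctsl went from 28.7% to 22.5%.

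Ctsd stood at 791.4, 811.5 and 804.0 CPM in NC and at 1018, 1021 and 1023 CPM in CO. All 3 CO libraries were higher, by a log2 ratio of 0.35 (0.32 to 0.37). Ctsb was at 1599, 1641 and 1692 CPM in NC and at 1826, 1794 and 1809 CPM in CO, with the smallest log2 ratio of the 9, 0.14 (0.12 to 0.15). Ctsz gave a log2 ratio of 0.21 (0.19 to 0.23).

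Ctsl was at 1993, 2062 and 2074 CPM in NC and at 1797, 1783 and 1815 CPM in CO. Every CO library was lower, and the log2 ratio was -0.18 (-0.20 to -0.17). Ctsl was thus lower in the same cells in which the other 4 cathepsins were higher.

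Both Lamp genes gave a log2 ratio of 0.31, with intervals of 0.28 to 0.34 for Lamp1 and 0.30 to 0.33 for Lamp2. Lamp2 was at 1738, 1753 and 1695 CPM in NC and at 2134, 2145 and 2152 CPM in CO, and Lamp1 at 630.2, 597.9 and 601.7 against 759.1, 750.7 and 756.3 CPM. Neither gene's groups overlapped.

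Cd68 was low and its CO libraries were the most scattered of the 10: 32.7, 30.2 and 31.0 CPM in NC against 36.5, 47.3 and 39.7 CPM in CO. The log2 ratio was 0.39 (0.28 to 0.51). Without CO library 02 it was 0.30, and in cells thinned to 1000 UMIs it was 0.23, both under the fold threshold.

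Npc2, the soluble cholesterol carrier, was at 3381, 3341 and 3390 CPM in NC and at 4382, 4341 and 4474 CPM in CO, all higher, for a log2 ratio of 0.38 (0.37 to 0.40). Npc1 was at 58.8, 54.2 and 58.5 CPM in NC and at 69.4, 67.9 and 68.9 CPM in CO, for a log2 ratio of 0.27 (0.18 to 0.35). Carrier and transporter were both higher in every CO library.

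**Figure D2:**
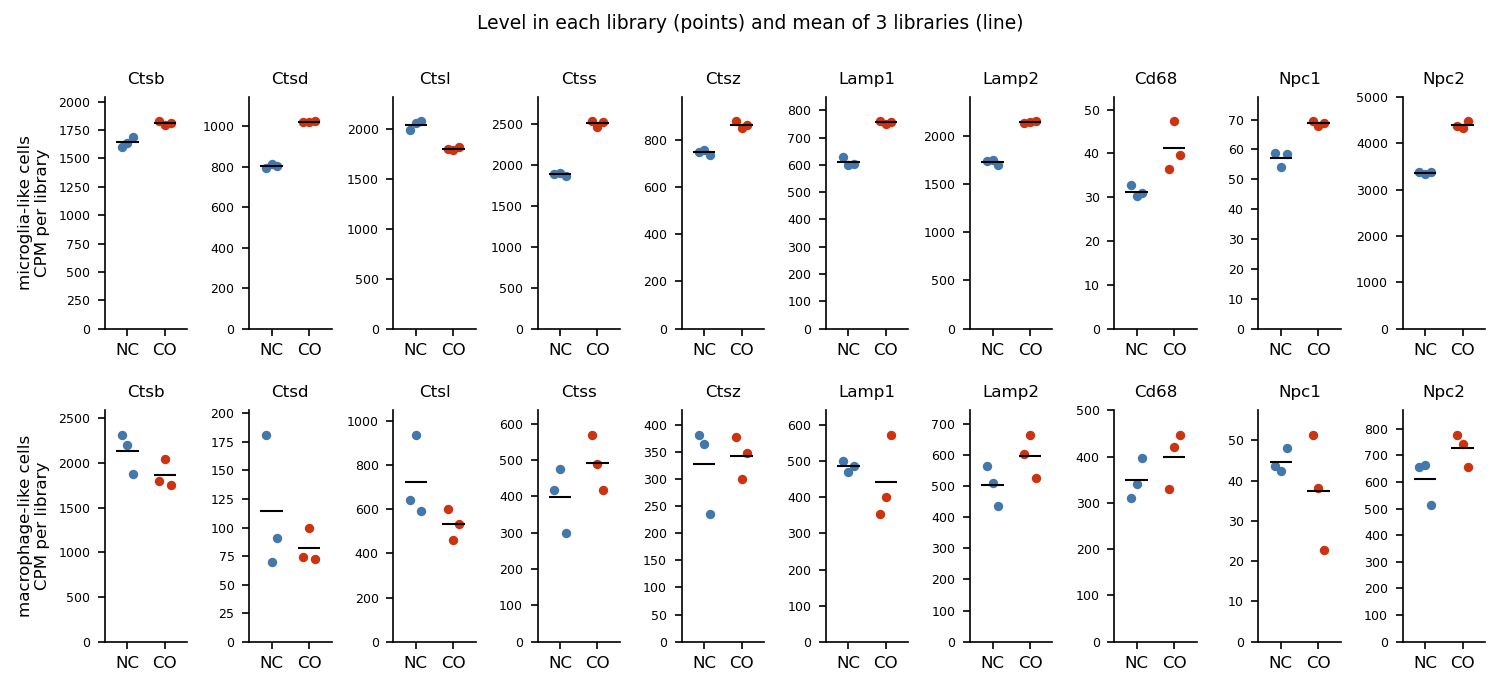
CPM of each gene in each library (points) and the mean of the 3 libraries of a group (line), in microglia-like cells (top) and macrophage-like cells (bottom), with every vertical axis starting at 0. In the top row the 2 groups are apart for all 10 genes, with Ctsl lower in CO, and in the bottom row they overlap for all 10.

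Depth and other markers moved beside these differences. The median depth of microglia-like cells was 5199 UMIs in NC and 6047 in CO. With each cell thinned to 1000 UMIs (128 NC and 132 CO shallower cells left out), 74.3% of NC and 80.5% of CO cells held a Ctss UMI, against 94.3% and 96.1% without thinning, and 76.2% and 72.0% held a Ctsl UMI. In endothelial-like cells 1.48% and 1.39% of thinned cells held a Ctss UMI. The 10 microglial markers of the gate summed to between 6701 and 6758 CPM in NC libraries and between 6619 and 6649 CPM in CO, the macrophage markers to between 108 and 113 and between 82.4 and 91.3 CPM, and the monocyte or dendritic markers to between 1941 and 2205 and between 2143 and 2238 CPM. Markers of other classes moved further and without overlap: oligodendrocyte markers from between 1074 and 1089 to between 1406 and 1426 CPM, astrocyte markers from between 349 and 361 to between 476 and 516 CPM, and choroid plexus markers from between 1038 and 1089 down to between 481 and 517 CPM. Oligodendrocyte-like cells are the highest in Lamp1 and Npc1 and choroid plexus-like cells were among the highest in Ctsd. Immediate early genes, which dissociation induces, were lower in CO for 12 of 14 (median log2 ratio -0.14), and the 10 microglial reference genes, named below, were higher for 8 (median 0.14). The part of depth, of dissociation and of RNA from other cells in the result was not tested.

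Within the microglia-like cells, Leiden clustering gave 4 clusters with at least 1000 such cells, numbered here by size (2019, 1819, 1180 and 790 NC cells and 2387, 1781, 1349 and 827 CO cells). The 9 genes other than Ctsl were higher in CO in each of the 4. Ctss gave log2 ratios of 0.45, 0.39, 0.35 and 0.54 in clusters 1 to 4, Npc2 0.40, 0.39, 0.29 and 0.52, and Ctsd 0.44, 0.27, 0.15 and 0.57. Ctsl was lower in clusters 1, 2 and 3 (-0.16, -0.21 and -0.35) and was at 0.09 in cluster 4. Clusters were made from the same counts, so cells may have moved between them with the genes described.

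In macrophage-like cells, 403 in NC and 307 in CO, library ranges overlapped for all 10 genes, whereas 13.6% of the 7507 genes compared had every CO library above and 14% every one below. None of the 10 passed the fold threshold upward (27.5% of 6170 genes did) and Ctsd and Ctsl passed it downward (28.3%). The median log2 ratio of the 10 was -0.04, and it was 0.21 with Leiden clusters, 0.13 with the looser gate and also above 0 with some of the libraries left out. The difference from microglia-like cells was not tested. These cells were fewer than the microglia-like cells and their intervals are wider.

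In macrophage-like cells Ctss was at 416.9, 475.0 and 299.6 CPM in NC and at 569.8, 489.0 and 418.7 CPM in CO. The lowest CO library lay within the NC range, and the log2 ratio of the pooled counts was 0.32 (0.16 to 0.47). Ctsl was at 640.2, 939.0 and 590.5 CPM in NC and at 602.7, 459.9 and 534.8 CPM in CO, for a log2 ratio of -0.44 (-0.57 to -0.31), with 1 CO library inside the NC range. The direction of both was the one seen in microglia-like cells.

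Ctsd in macrophage-like cells rested on 1 library: NC stood at 181.4, 70.0 and 91.2 CPM and CO at 74.0, 99.99 and 72.5 CPM. The pooled log2 ratio was -0.47 (-0.80 to -0.14), and without NC library 01 it was 0.021. Cd68, Lamp2 and Npc2 gave log2 ratios of 0.20 (0.03 to 0.36), 0.26 (0.12 to 0.39) and 0.25 (0.13 to 0.38). Ctsb gave -0.18 (-0.26 to -0.11), and 0.049 with Leiden clusters. Ctsz, Lamp1 and Npc1 gave 0.061, -0.14 and -0.25, each with an interval that includes 0.

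**Figure D3:**
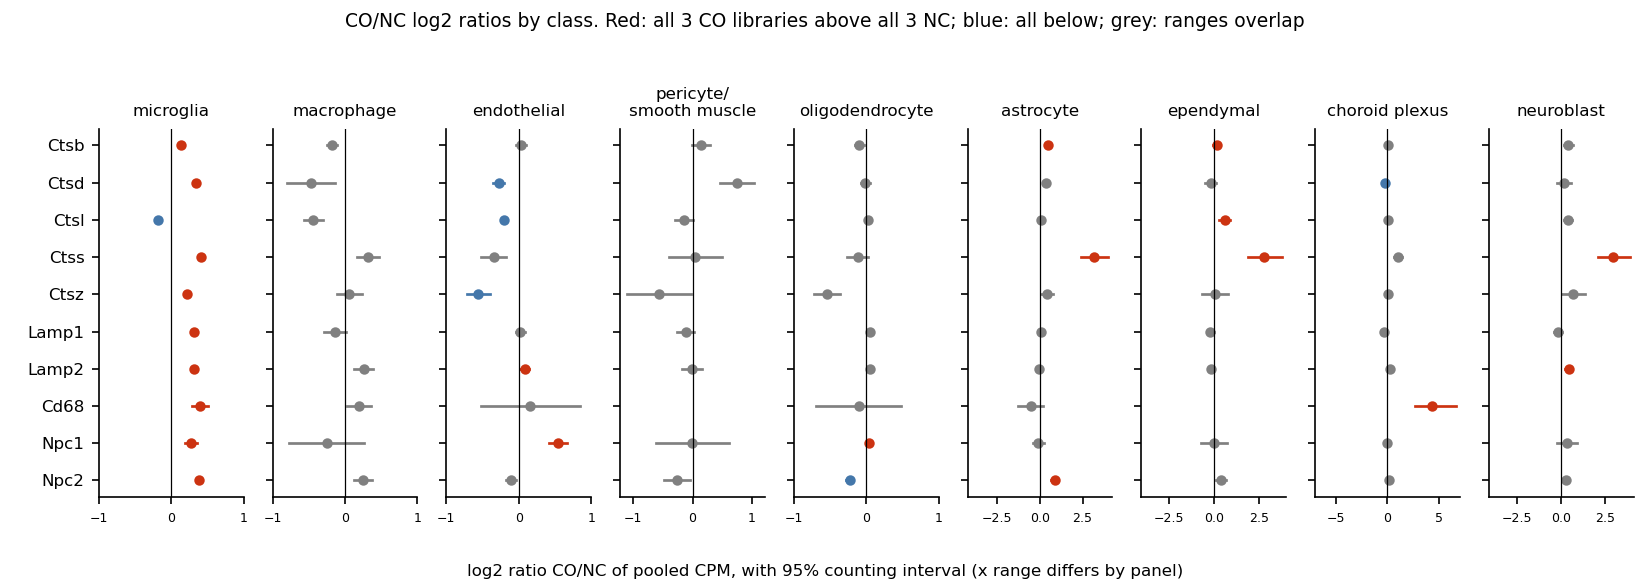
Log2 ratio of CO to NC for each gene (rows) in each of 9 classes (panels), with the 95% counting interval (line); the range of the horizontal axis differs between panels, and genes under 30 counts in a class are left out. Red marks genes whose 3 CO libraries all lie above the 3 NC libraries and blue those all below: the microglia panel has 9 red and 1 blue, and the macrophage panel none of either.

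Endothelial-like cells (3041 in NC, 2168 in CO) had genes higher and genes lower in CO. The groups fell into different Leiden clusters: 1 cluster held 82.4% of the NC and 1.52% of the CO cells, and another 2.24% and 84.9%, so the ratios in this class compare cells of largely separate clusters. Npc1 was at 56.8, 61.4 and 55.2 CPM in NC and at 89.9, 82.4 and 79.8 CPM in CO. Every CO library was higher, for a log2 ratio of 0.54 (0.42 to 0.67), and Npc1 was the only 1 of the 9 genes over the expression minimum that passed the fold threshold upward (21.1% of 6900 genes did). Over the alternatives run, this ratio stayed between 0.45 and 0.59.

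The 3 cathepsins Ctsd, Ctsl and Ctsz were lower there with no overlap of libraries: Ctsd at 189.3, 202.0 and 208.7 CPM in NC against 152.6, 159.9 and 182.3 CPM in CO (log2 ratio -0.28, -0.36 to -0.20), Ctsl with a log2 ratio of -0.20 (-0.22 to -0.18) and Ctsz with -0.56 (-0.71 to -0.40). Every CO library lay below every NC library for 24.5% of the 11231 genes compared, and above for 24.8%. Ctsz was at 59.3, 55.8 and 49.8 CPM in NC and at 32.3, 46.3 and 33.2 CPM in CO, and with Ctss it passed the fold threshold downward, as did 18.1% of genes. The Ctss ratio of -0.35 (-0.52 to -0.18) turned in sign without CO library 01 (0.0092). Lamp2 was above in every CO library by a log2 ratio of 0.08 (0.02 to 0.15), and Ctsb, Lamp1, Cd68 and Npc2 overlapped.

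Markers of other cells also differed in endothelial-like cells. The microglial markers summed to between 120 and 177 CPM in NC libraries and to between 68.9 and 110 CPM in CO, choroid plexus markers to between 1010 and 1023 and between 448 and 494 CPM, oligodendrocyte markers to between 483 and 545 and between 252 and 302 CPM, and neutrophil markers to between 39.8 and 42.7 and between 156 and 183 CPM. Their part in the result was not tested. The median over the 10 reference genes was 2.04% of their microglial level in NC and 1.29% in CO. In the endothelial-like cells with no UMI of those 10 genes the log2 ratio was 0.55 for Npc1, -0.36 for Ctsd, -0.33 for Ctsl and -0.63 for Ctsz, and none of these was nearer to 0 than in all cells.

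In pericyte- or smooth muscle-like cells (458 and 445 cells), the contractile cells of the vessel wall, all 9 genes with at least 30 counts overlapped between libraries, whereas every CO library lay above for 11.6% of the 8870 genes compared and below for 11.8%. Ctsd was at 81.8, 85.3 and 128.0 CPM in NC and at 201.6, 172.3 and 109.8 CPM in CO, for a log2 ratio of 0.75 (0.46 to 1.03), beside 25.9% of 7588 genes past the fold threshold upward and 25.3% downward. Its lowest CO library lay within the NC range, and the ratio was 0.13 in thinned cells and 0.24 in cells with no reference UMI, both under the fold threshold. Ctsz gave -0.57 (-1.12 to -0.03) and turned in sign under 3 alternatives.

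Oligodendrocyte-like cells (4498 and 1469) held their high Npc1 and Lamp1 levels in both groups. Npc1 was above in every CO library by a log2 ratio of only 0.04 (0.00 to 0.08), and Lamp1 overlapped at 0.06 (0.03 to 0.08); every CO library lay above for 18.6% of the 11867 genes compared. Npc2 was at 381.8, 388.5 and 386.7 CPM in NC and at 295.9, 344.3 and 347.4 CPM in CO, below in every library (20.4% of genes), for a log2 ratio of -0.23 (-0.28 to -0.18). Ctsz had a log2 ratio of -0.54 (-0.72 to -0.36), the only 1 of the 10 past the fold threshold in either direction (7.18% of genes downward, 10.5% upward), but its CO libraries ran from 11.3 to 33.5 CPM and the sign turned when cells under 2000 UMIs were left out (0.14). In the same cells the reference genes were lower in CO for 10 of 10, with a median log2 ratio of -0.76, and only 74.0% of the NC cells fell into an oligodendrocyte cluster by Leiden, against 94.2% in CO. A single Leiden cluster held 24.3% of the NC and 1.36% of the CO cells of the class. That cluster got no class name, had a median depth of 881 UMIs and had globin and pituitary genes among its top genes. Choroid plexus markers in the class summed to between 4012 and 7086 CPM in NC libraries and between 1628 and 2040 CPM in CO. Immediate early genes were lower in CO for 14 of 14 (median log2 ratio -0.94). The part of these differences in the ratios was not tested. The Npc2 ratio was -0.060 with Leiden clusters, -0.043 in cells of at least 2000 UMIs and -0.15 in cells with no reference UMI, but -0.85 as a mean over cells and -1.06 in thinned cells. Leaving out cells with a reference UMI also changed depth. In NC the median was 2229.5 UMIs in cells with such a UMI and 8790.5 in those without, against 10131.5 and 8805 in CO.

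In astrocyte-like cells (514 and 691) 7 of 10 genes had a log2 ratio above 0, as had 50% of all genes compared. Npc2 was at 147.9, 130.5 and 117.6 CPM in NC and at 297.9, 242.4 and 191.5 CPM in CO, all higher, for a log2 ratio of 0.86 (0.66 to 1.06). Ctsb was at 248.2, 315.6 and 310.9 CPM in NC and at 438.9, 424.0 and 350.3 CPM in CO, also all higher, for 0.47 (0.33 to 0.62). With Ctss these were the 3 genes with every CO library above (14.3% of 10162 genes), and 5 of the 9 over the expression minimum, with Ctsd and Ctsz added, passed the fold threshold upward (23.3% of 8176 genes) and none downward (25.5%). Lamp1 and Lamp2 stood at 0.07 (-0.05 to 0.19) and -0.04 (-0.15 to 0.07). Median depth was 3518 UMIs in NC and 2235 in CO, and the median over the reference genes went from 1.41% to 2.38% of their microglial level. In the 391 NC and 409 CO astrocyte-like cells with no reference UMI the log2 ratio was 0.57 for Npc2 and 0.27 for Ctsb, and -0.062 for Ctsd and -0.31 for Ctsz, which had been at 0.37 and 0.42.

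Outside the phagocytes Ctss had its largest ratios on few counts. It went from 16 to 182 UMIs in astrocyte-like cells (log2 ratio 3.14, 2.403 to 3.98), from 12 to 93 in ependymal-like cells, which line the ventricles (2.80, 1.92 to 3.799), and from 12 to 288 in neuroblast-like cells (2.93, 2.11 to 3.903). Every CO library was above every NC library in all 3 classes, as were 14.3%, 14.8% and 14.5% of genes. In CO these levels were 2.56%, 2.11% and 1.35% of the microglial Ctss level.

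The microglial reference genes, C1qa, C1qb, C1qc, Tyrobp, Fcer1g, Ly86, Trem2, Selplg, Ltc4s and Cd53, were higher in CO as a sum in each of these classes. In astrocyte-like cells 7 of the 9 compared were higher and 2 lower. The median over the 10 reference genes of the level relative to microglia-like cells went from 1.41% to 2.38% for astrocyte-like cells. For ependymal-like cells it went from 0.214% to 1.63%, and for neuroblast-like cells from 0.213% to 1.45%. Among cells with no reference UMI, 1.47% of CO astrocyte-like cells and 2.302% of NC ones held a Ctss UMI, against 7.45% and 1.63% of the cells with one. In CO neuroblast-like cells 3.28% of those without and 10.2% of those with a reference UMI held Ctss; those without kept 36 Ctss UMIs in CO and 2 in NC, a log2 ratio of 2.75. In ependymal-like cells 8.14% of CO and 3.96% of NC cells without a reference UMI held Ctss, on 10 and 5 UMIs. With neuroblast-like cells taken from Leiden clusters the Ctss ratio was -0.17, and with the looser gate it was 0.082. In these 3 classes Ctss stood near the level of other microglial genes in CO, and no expression of Ctss by these cells is read from it; the part of free RNA was not tested.

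**Figure D4:**
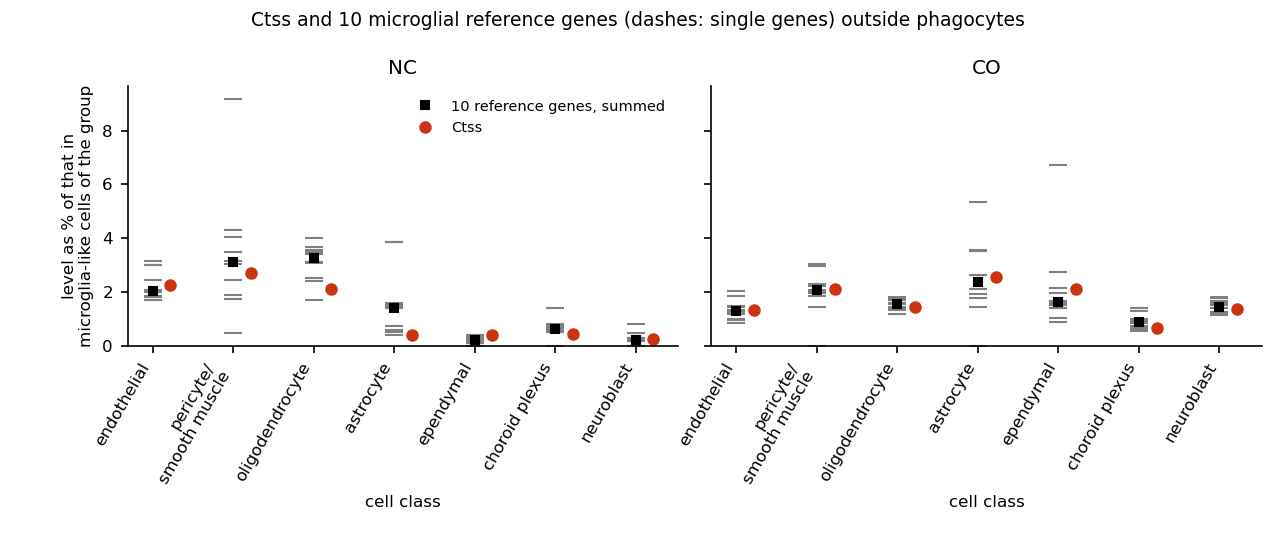
Level of Ctss (red circle) and of each of 10 microglial reference genes (grey dashes) in 7 classes other than phagocytes. Levels are a percent of that in microglia-like cells of the same group, with NC left and CO right. The black square is the median of the 10 percents, although the legend in the plot calls it summed. Ctss lies within the range of the single reference genes in most classes (in NC astrocyte-like cells at 0.386% against a median of 1.41%). Both Ctss and the median are higher in CO in astrocyte-, ependymal- and neuroblast-like cells.

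Ependymal-like cells (135 and 138) also had Ctsl above in every CO library, at 96.3, 87.6 and 87.3 CPM in NC and 127.4, 175.5 and 105.9 CPM in CO, for a log2 ratio of 0.61 (0.30 to 0.91); without the cells that held a reference UMI it was 0.11. With Ctss and Npc2 it passed the fold threshold upward (26.3% of 7595 genes did, and 28.4% downward). Ctsb was above as well, by 0.16 (-0.03 to 0.35), and its interval includes 0. In neuroblast-like cells (441 and 1246) 8 of the 9 genes compared had a log2 ratio above 0, beside 50.9% of all genes. Lamp2 was at 86.7, 79.1 and 113.8 CPM in NC and at 116.5, 152.1 and 118.4 CPM in CO, all higher, for 0.44 (0.25 to 0.64), and it was -0.028 with Leiden clusters. Of the 7 over the expression minimum 4 passed the fold threshold upward, Ctsb, Ctsl, Ctss and Lamp2 (16.7% of 7239 genes did, and 16.5% downward). Ctsb and Ctsl gave 0.42 and 0.39, and -0.16 and -0.12 in cells with no reference UMI.

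In choroid plexus-like cells (353 and 349) 7 of 10 genes had a log2 ratio above 0, beside 49.3% of all genes compared. Ctsd, the leading cathepsin of the class, was at 761.4, 786.2 and 898.3 CPM in NC and at 718.2, 626.9 and 737.0 CPM in CO. Every CO library was lower (19.3% of 10453 genes), with a log2 ratio of -0.22 (-0.27 to -0.18), but in the 160 NC and 104 CO cells with no reference UMI the ratio was 0.29. None of the 8 genes over the expression minimum passed the fold threshold, beside 21% of 5922 genes in each direction. Cd68 went from 3 to 40 UMIs, a log2 ratio of 4.30 (2.65 to 6.63), and every CO library was above (17.9% of genes). Its CO level was only 4.31 CPM, and the cells with no reference UMI held 0 of its UMIs in NC and 2 in CO. The depth of the class differed, with a median of 39499 UMIs per cell in NC and 9201 in CO, and 88.9% of its NC cells but 48.4% of its CO cells fell into the choroid plexus cluster by Leiden, and the part of depth in these ratios was not tested.

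The other genes of the lysosome were read from lists and by the same rules in microglia-like cells. Of 37 other hydrolases with at least 30 counts, 32 were higher and 5 lower in CO, with a median log2 ratio of 0.19, and 50% of all genes compared were higher. By the naming rule, Arsb and Man2b1, which degrade glycosaminoglycans and mannosides, gave 0.68 and 0.57, and Pld3 and Pla2g15 gave -0.43 and -0.18. In macrophage-like cells 20 of 35 were higher (49.8% of all genes), with a median of 0.078.

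Among the activators and inhibitors that work with the proteases, Psap, the precursor of the saposins, gave 0.46 and Gm2a 0.35, and the cysteine protease inhibitors Cstb and Cst3 gave 0.35 and 0.29. In all, 4 of 7 were higher and 3 lower. The membrane proteins other than Lamp1, Lamp2, Cd68 and Npc1 were divided, with 16 of 30 higher and a median of 0.0088; Slc36a1 and Clcn7 were at 0.35 each, and Slc29a3 and the calcium channel Mcoln1 at -0.67 and -0.39. Of the vacuolar ATPase, the proton pump of the lysosome, 11 of 18 subunits were higher with a median of 0.041, from Atp6v1c1 at 0.38 and Atp6ap1 at 0.18 to Atp6v0a1 at -0.11 and Atp6ap2 at -0.19.

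Of genes that deliver proteins to the lysosome, 15 of 22 were higher (median 0.13), led by the sorting receptor Sort1 (0.66) and by Grn, progranulin (0.45), while Nagpa and Gga2 were at -0.50 and -0.43. Of biogenesis and nutrient sensing genes 12 of 19 were higher (median 0.048), with Uvrag at 0.47, Mtor at 0.24, Tfe3 at -0.39 and Rragd at -0.77. Of cholesterol genes 7 of 20 were higher (median -0.17): Soat1, which esterifies cholesterol, at 1.00 and the exporter Abcg1 at 0.42, against the synthesis enzyme Hmgcs1 at -0.76. In macrophage-like cells 5 of 5 activators and inhibitors (median 0.26) and 19 of 27 membrane proteins (0.24) were higher, beside 49.8% of all genes. Higher there were also 10 of 16 vacuolar ATPase subunits (0.086), 11 of 21 delivery genes (0.087) and 12 of 19 biogenesis and nutrient sensing genes (0.088). Of the cholesterol genes 5 of 18 were higher there (-0.34). No list was tested, and the differences between lists were not tested.

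**Figure D5:**
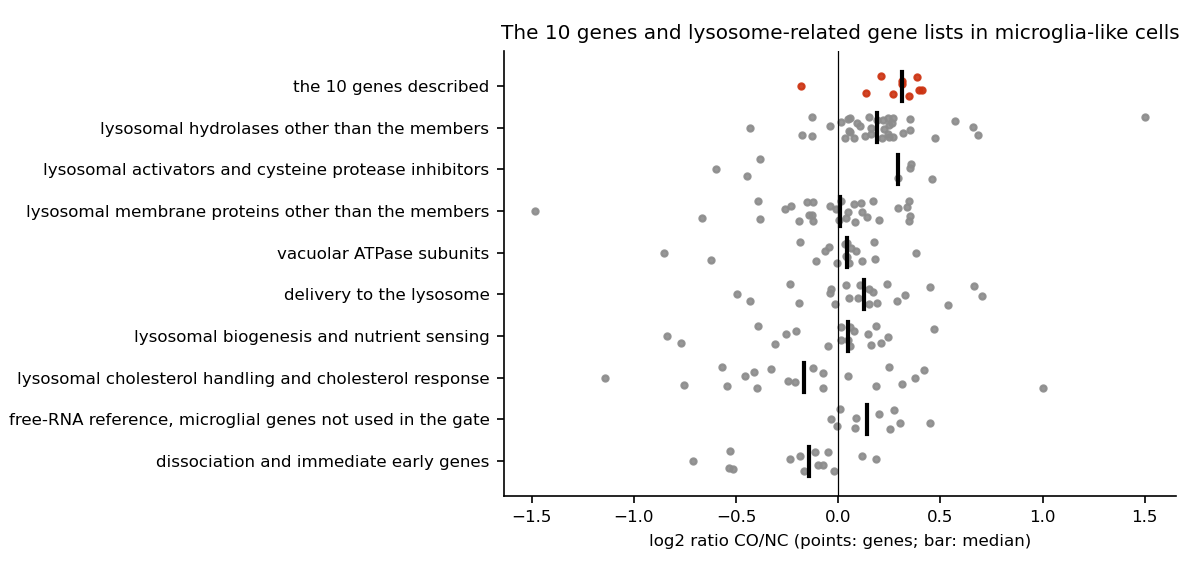
Log2 ratio of CO to NC in microglia-like cells for each gene (points) of the 10 genes described (red) and of 9 lists (grey), with the median of each list (bar). The hydrolases lie mostly to the right of 0 and the cholesterol genes mostly to the left.

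In endothelial-like cells, 9 of 37 hydrolases were higher and 28 lower (median -0.30), where 49.7% of all genes compared were higher, 8 of 29 membrane proteins were higher (median -0.30), and 4 of 17 vacuolar ATPase subunits were higher (median -0.17). Of the cholesterol list 15 of 20 were higher, with a median of 0.23, in the cells in which Npc1 was also higher. In oligodendrocyte-like cells the hydrolases were even, with 18 higher and 19 lower (median -0.052), beside 49.7% of genes higher.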

How the data were processed

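The authors deposited a matrix of raw UMI counts per gene and cell barcode for each library; per the submitters' processing notes, reads were mapped to Rnor_6.0 with Cell Ranger, whose release is not stated there. Cells below 500 UMIs or 200 genes were dropped. Scrublet doublets were removed (594 in NC, 891 in CO); in 2 CO libraries its threshold marked under 0.5% of barcodes and the top 6% of scores were removed instead. A cell joined a class when at least 3 of its markers were detected and it led the next of 18 lists by at least 2 markers. The 9 classes compared had at least 30 cells in every library. Counts were summed per class and group and scaled with TMM factors (edgeR 4.0.16, R 4.3.3); DESeq2 1.42.0 and scanpy 1.11.5 served alternatives and clustering. A gene was compared in a class from 30 UMIs in NC and CO together. Intervals are exact binomial; scripts were tested on simulated data.

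The 10 genes, the gene lists, the marker gate and the counting of a group as 1 sample were chosen with earlier results of these data known. All 10 genes could be named in every class (those not named are in the plot of ratios), and of each lysosome list the 2 highest and 2 lowest genes in microglia-like cells among those over the expression minimum (mean log2 CPM from 4 up); 1 gene that this rule names is not reported here. The microglia clusters and the cells with no reference UMI were added after seeing the data. No promoter entry was used for Ctsb.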

Additional observations from a re-analysis of the deposited data

Results flagged for a closer look

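Of the 10 genes, 4 had every CO library above every NC library in 1 class and every CO library below in another, beside 51.6% of the 9488 genes compared in at least 6 classes, so the count is no result about these genes; the difference between the classes was not tested. Ctsd had log2 ratios of 0.35 in microglia-like, -0.28 in endothelial-like and -0.22 in choroid plexus-like cells. Ctsz had 0.21 in microglia-like and -0.56 in endothelial-like cells. Ctsl had -0.18 in microglia-like, -0.20 in endothelial-like and 0.61 in ependymal-like cells. Npc2 had 0.38 in microglia-like and 0.86 in astrocyte-like cells and -0.23 in oligodendrocyte-like cells. Groups of 3 libraries were not searched for outlying libraries.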

How the results depend on the processing

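In microglia-like cells 9 of the 10 genes kept their direction in all 19 alternatives run for each, and Ctsl in all but 1 (cluster 4, 0.086). The median of 0.31 was 0.26 with total-count scaling and 0.18 and 0.44 in clusters 3 and 4, where 1 and 7 genes, not 4, passed the fold threshold upward and 1, not 0, passed it downward in cluster 3; without 1 library the count upward was 4 to 5. With the libraries taken as replicates, edgeR without a replicate block, edgeR with one and DESeq2 each called 9 genes higher and 1 lower at an adjusted p of 0.05, beside 33.4%, 32.4% and 27% of the 11755 genes called in either direction; these fits treat parts that spread like 1 pool as animals. Same-numbered libraries did not deviate together (no class had all 3 correlations over 0.1; in microglia-like cells they were 0.147, 0.141 and -0.12), so the numbers were not read as pairs.

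In macrophage-like cells the count upward, 0, was 1 with the stricter gate, Leiden clusters, thinning, doublets kept, total-count scaling and cell means, 2 with the looser gate, and 0 to 3 without 1 library. The count downward, 2, was 0 with the looser gate, 1 with thinning and with cell means, and 1 to 3 without 1 library. By another measure, an adjusted p of 0.05, edgeR without and with the replicate block and DESeq2 each called 0 downward. They called 8.19%, 7.66% and 5.28% of the 7507 genes in either direction. Their log2 ratios were -0.46, -0.38 and -0.47 for Ctsd and -0.43, -0.41 and -0.44 for Ctsl, still past the fold threshold. The median of -0.041 was 0.13 with the looser gate, 0.21 with Leiden clusters, 0.027 with cell means, and -0.15 (without NC library 03) to 0.061 (without NC library 01); it was also above 0 without CO library 02 (0.047) or 03 (0.029).

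Under the fold threshold, Ctsb in macrophage-like cells turned in sign with Leiden clusters (0.049), Ctsz in 3 of 15 alternatives and Npc1 in 2 of 15. Ctsd in choroid plexus-like cells turned in 1 of 16 (0.29). Other ratios turned too: signs changed in 33 of 160 alternatives in oligodendrocyte-like cells, 32 of 141 in pericyte- or smooth muscle-like cells and 1 of 190 in microglia-like cells. These counts include ratios past the fold threshold. Of ratios past it, signs turned for Ctsd in macrophage-like cells (-0.72 to 0.021 without 1 library, the last without NC library 01); for Ctss in endothelial-like cells with thinning (0.15), doublets kept (0.078) and without 1 library (-0.72 to 0.0092); for Ctsz in pericyte- or smooth muscle-like cells with Leiden clusters (0.46), cell means (0.62) and no reference UMI (0.064); and for Ctsz in oligodendrocyte-like cells with Leiden clusters (0.28), at least 2000 UMIs (0.14) and no reference UMI (0.20). In neuroblast-like cells they turned for Ctss (-0.17) and Lamp2 (-0.028) with Leiden clusters and for Ctsb (-0.16) and Ctsl (-0.12) with no reference UMI, as for Ctsd (-0.062) and Ctsz (-0.31) in astrocyte-like cells. The causes were not tested. Low counts limit Cd68, Ctss and Ctsz outside the phagocytes.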
